A study of Danio rerio with 40 samples.

Results

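The core sperm miRNAs described here were the miRNAs that were read at least once in every zebrafish sperm library and that belonged to none of the larger families and clusters set apart by name, such as let-7, miR-10, miR-430 or the miR-17-92 cluster. There were 74 of them among the 346 miRNAs of the deposited table and among the 172 miRNAs outside the named families. They were chosen by their values, since a member had to lie above the value of a read count of 0 in all 39 libraries, so that their detection and their levels are given below as a description without a test.

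Small RNA was sequenced from the sperm of wild-type zebrafish males that were kept under a high or a low risk of sperm competition, in 1 order or the other, with a sperm sample taken after each period. High meant a pair of males with a single female and Low a single male with a pair of females. High2 (10 libraries) was High in the second period, after Low, and High1 (10 libraries) was High in the first period. Low2 (9 libraries of 10 samples, the other one not analysed here) was Low in the second period, after High, and Low1 (10 libraries) was Low in the first period. High2 and Low1 thus came from the Low-first line of males, and High1 and Low2 from the High-first line. There was no untreated group. The group of a library was read from its title (Lb for High2, Ha for High1, Hb for Low2, La for Low1), and the treatment given beside the title in the public record named another group for 22 of the 39 libraries, namely for 9 in High2 and 1 in High1, against 8 in Low2 and 4 in Low1. Most of the 9 in High2 were named Low2 there, and all 8 in Low2 were named High2, so that the public record largely exchanged these groups. Results by group therefore depend on this reading of the titles, and the labels of the public record were used as an alternative. Libraries are named by group and replicate number, as in High1 4.

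A miRNA is a short RNA cut from a hairpin precursor, of which either arm (5p or 3p) can be kept in an Argonaute protein, where its seed near the 5′ end pairs with messenger RNAs and lowers their translation or stability. Mature sperm transcribe little, and their miRNAs are left from spermatogenesis or, in mammals, taken up in the male tract, and reach the egg at fertilisation. Many of the miRNAs outside the named families are known as marks of single tissues, such as miR-122 of liver, miR-375 of pancreatic islets and miR-140 of cartilage, and others are known only in fish.

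The total number of miRNA reads ranged from 948655 to 6071817 in High2, from 742784 to 5600401 in High1, from 133035 to 5303390 in Low2 and from 79435 to 8447142 in Low1, and 4 libraries (Low1 1, Low1 3, Low2 2 and Low2 3) had fewer than 500000. Levels are given as normalised reads, the read count divided by the size factor of the library, and a single read in the shallowest library, Low1 1, was worth 36.8 normalised reads. In this library 63 of the 74 core miRNAs had their fewest reads, and its depth weighed on the membership mainly at the edge of the rule. At the edge of the rule, 10 core miRNAs had a single read in their lowest library, among them miR-194b (median 110 normalised reads), miR-722 (79.8), miR-727-5p (73.4) and miR-455-5p (24.8). A further 18 miRNAs missed the rule by 1 library, 14 of them in Low1 1, and the highest of these was miR-93 with a median of 141.95 normalised reads, followed by miR-15b-5p (85.8) and miR-130c-5p (79.0). Reads carried no molecular identifiers, so that read numbers speak to counting error only.

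Low2 6, Low2 7 and High1 7, all of sequencing pool 5, stood apart from the other libraries in some core miRNAs. High1 8, of the same pool and line, was set with them, but it lay nearer to the other libraries. Some of the fold changes and correlations, and the contrast between periods, are given with and without these 4 libraries. In these bulk samples, fewer cells of a type and less RNA per cell cannot be told apart.

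The core miRNAs took 33.3% to 69.6% of the miRNA reads in High2 libraries (median 50.1%), 30.2% to 55.4% in High1 (median 46.3%), 29.5% to 67.6% in Low2 (median 51.0%) and 42.4% to 70.9% in Low1 (median 51.7%). The ranges of the 4 groups overlapped over most of their width. miR-2189, a miRNA named in zebrafish of which little is known, accounted for a median of 54.9% of the core reads, and the 6 most abundant core miRNAs together for 88.9%. The 37 least abundant core miRNAs took a median of 0.628% of the core reads. Without miR-2189 in the numerator and in the total, the core share was lower and spanned fewer percentage points in each group. It was 24.98% to 36.4% in High2, 20.2% to 34.7% in High1, 18.0% to 35.7% in Low2 and 28.4% to 33.8% in Low1. Its 4 lowest values were those of Low2 6 (18.0%), Low2 7 (18.9%), High1 7 (20.2%) and High1 8 (21.4%).

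**Figure D1:**
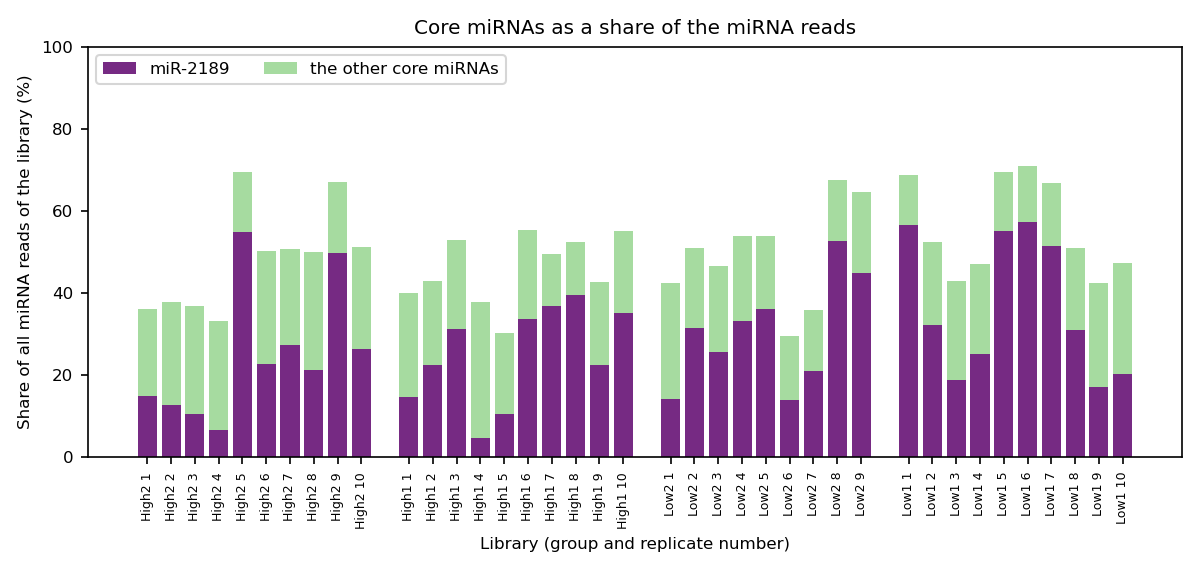
Share of all miRNA reads of a library (vertical axis, %) taken by miR-2189 (purple) and by the other core miRNAs (green), with 1 bar per library and the libraries ordered by group and replicate number. The purple part ran from 4.78% in High1 4 to 57.3% in Low1 6, and most of the difference between bars lay in it.

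miR-2189 was the most abundant miRNA of the whole table in 32 of the 39 libraries. It had 94490 to 1242010 normalised reads in High2 (median 304980), 74016 to 1121430 in High1 (median 483382), 191069 to 1440920 in Low2 (median 561019) and 209278 to 2030380 in Low1 (median 539148). All groups overlapped, and the spread within each exceeded the distance between their medians. The 5 highest libraries were Low1 6, Low1 1, Low1 5, Low2 8 and Low1 7, and the 5 lowest were High1 4, High2 4, High2 3, High2 2 and High1 5. Its level hardly followed that of the other members, with correlations between -0.46 and 0.41 across the 39 libraries and a median of 0.03. The SD of its log2 values was 1.15, against a median of 0.67 over the 74 core miRNAs and of 0.67 over all miRNAs read in every library.

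Next came miR-22a-3p, the main product of a broadly expressed hairpin, which was at the same time the steadiest core miRNA. Its SD was 0.32 on the log2 scale, and it had 87924 to 135092 normalised reads in High2 (median 113074), 98312 to 149627 in High1 (median 120277), 75150 to 158322 in Low2 (median 117235) and 87823 to 225897 in Low1 (median 111236). The highest library thus held less than 4 times the normalised reads of the lowest. miR-21, a widely expressed miRNA that is raised in growth and repair, was the third, with medians of 68814 in High2 and 61326 in High1, against 62809 in Low2 and 56376 in Low1. Its values lay between 41012 and 103138 normalised reads in all libraries but High1 4, which had 190858.

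miR-128-3p, best known from neurons, had medians of 38268 normalised reads in High2 and 46302 in High1, against 40423 in Low2 and 49540 in Low1. miR-25-3p, which in vertebrates comes from a hairpin beside miR-93, had 29121 in High2 and 33743 in High1, against 32657 in Low2 and 22221 in Low1. miR-31, known from epithelia, had 22342 in High2 and 16532 in High1, against 19222 in Low2 and 18008 in Low1. The groups overlapped for each of these miRNAs. The order of neighbours held beyond the spread of their difference (1 SD over libraries) for miR-2189 over miR-22a-3p, miR-22a-3p over miR-21, miR-25-3p over miR-31, miR-31 over miR-16b and miR-16b over miR-7a, but not for miR-21 over miR-128-3p or for miR-128-3p over miR-25-3p. From miR-7a downwards, no neighbour in the order of the 20 most abundant differed from the next beyond that spread. Counted by libraries, miR-21 was above miR-128-3p in 34 of 39, as many as for miR-31 over miR-16b. miR-128-3p was above miR-25-3p in 29 of 39.

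**Figure D2:**
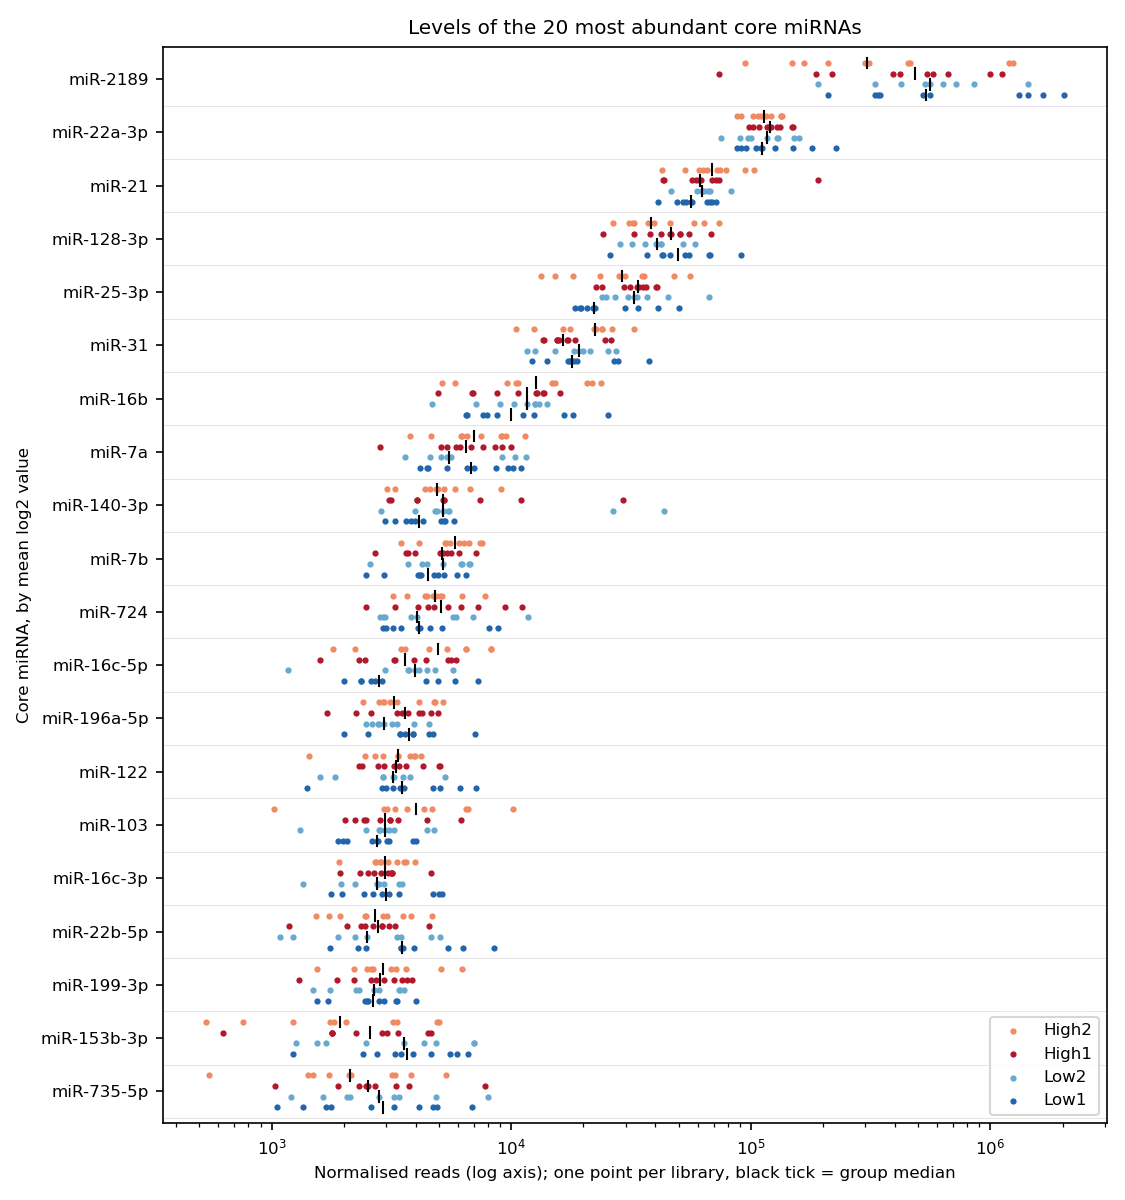
Normalised reads (horizontal log axis) of the 20 core miRNAs with the highest mean log2 value, with 1 point per library, a row of points per group and a black tick at the group median. miR-2189 spread over more than a factor of 10 in High2 and in High1, whereas the points of miR-22a-3p lay between 75150 and 225897, and miR-140-3p had 3 points far to the right of the others.

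From rank 8 downwards the medians over all libraries fell below 10000 normalised reads. They were 6513 for miR-7a and 5199 for miR-7b, a pair known from brain and endocrine cells, 4947 for miR-140-3p and 4573 for miR-724, a miRNA of fish. miR-196a-5p, from hairpins inside the Hox gene clusters, had a median of 3420, liver miR-122 of 3368, miR-103 of 3046, miR-153b-3p, a miRNA of the brain, of 3035, and miR-199-3p, of mesenchyme, of 2730. In the whole table, 5 core miRNAs were among the 10 most abundant, 6 among the first 20 and 21 among the first 50. At the other end, 15 core miRNAs had a median under 100 normalised reads, and the lowest were miR-455-2-5p (22.0), miR-216a (23.0) and miR-455-5p (24.8).

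Some of the core miRNAs are named as marks of other tissues, and by the rule these were read in every library. The liver miRNA miR-122, all 3 miRNAs of the gut list (miR-192, miR-194a and miR-194b) and all 4 of the pancreas list (miR-375, miR-216a, miR-216b and miR-217) were core miRNAs, as were miR-499-5p, which comes from a myosin gene of muscle, and both arms of miR-199. The muscle and mesenchyme lists were less complete than those of gut and pancreas, with 3 of 8 and 3 of 7 miRNAs read in every library. So were the lists of red blood cells (1 of 3), white blood cells (1 of 4), neural cells (4 of 20) and epithelium (7 of 12). Only miR-153b-3p of the neural list was a core miRNA among these. The neural list took up to 1.74% of the reads of a library (Low1 9), and the epithelial list up to 7.75% (Low2 2). The levels of the core miRNAs named here were low against the whole. miR-122 took 0.105% to 0.305% of the reads in High2, 0.0783% to 0.282% in High1, 0.0527% to 0.266% in Low2 and 0.0969% to 0.440% in Low1. The pancreas list summed to 0.0624% to 0.174% in High2, 0.0546% to 0.248% in High1, 0.0538% to 0.366% in Low2 and 0.0491% to 0.148% in Low1. None of the 4 miRNAs of the endothelial miR-126 hairpins was read in every library, and their median share was at most 0.000692% in any group. Both arms of the gonad miRNA miR-202, which the rule left out, were read in all 39 libraries. Whether the tissue miRNAs came from sperm or from other cells in the samples was not tested.

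For 7 hairpins both arms were core miRNAs, which allowed the balance of the arms to be measured within each library. It was strongest for miR-22a, where the 3p arm exceeded the 5p arm by 9.58 ± 0.65 on the log2 scale (mean and SD over 39 libraries), with medians of 116726 normalised reads for 3p and 160 for 5p. Its paralogue miR-22b had the opposite balance, with the 3p arm at -4.13 ± 0.72 relative to the 5p arm and medians of 151.7 for 3p and 2902 for 5p. The sign was the same in 39 of 39 libraries for miR-22a (3p higher) and in 39 of 39 for miR-22b (5p higher). The annotation of the arms was taken from the names, and these values were fixed in part by the rule, since both arms had to be read everywhere.

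The 3p arm was also the more abundant one for miR-140 (3.43 ± 1.2, in 39 of 39 libraries), miR-199 (1.53 ± 0.73, in 38), miR-222a (2.03 ± 1.08, in 36) and miR-725 (2.27 ± 1.79, in 38). The arms of miR-16c lay close together, at -0.37 ± 0.74, and the 3p arm was higher in 11 of 39 libraries. Single libraries departed from the common balance. In Low2 5 the 3p arm of miR-725 had 5.18 normalised reads, against a median of 877 over all libraries, and the difference of the arms was -5.64. In Low2 7 the difference of miR-222a was -1.62 and that of miR-140 was 6.67, the largest of any library for miR-140.

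**Figure D3:**
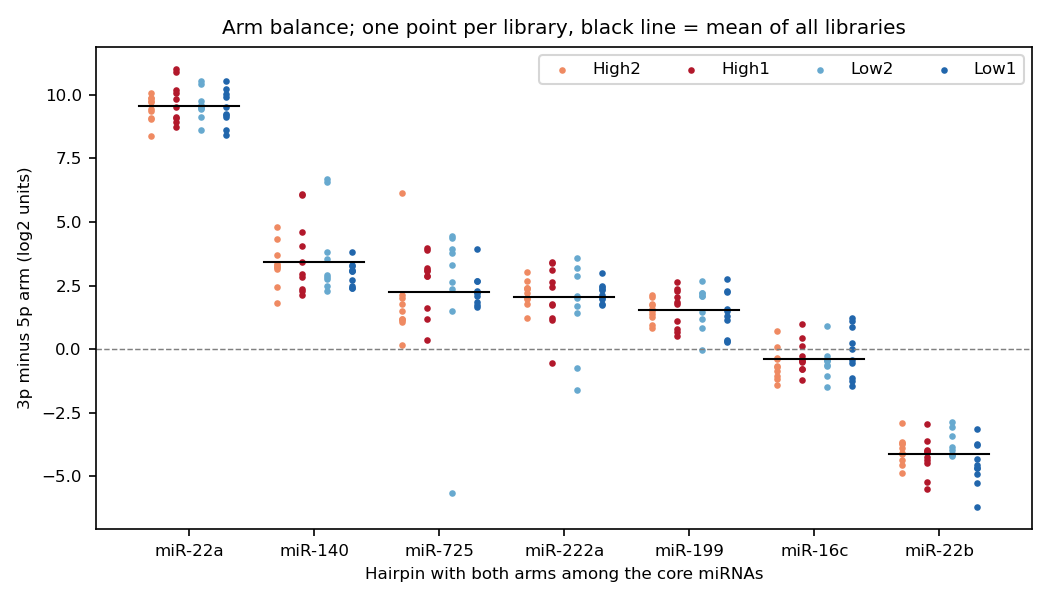
Difference between the 3p and the 5p arm (vertical axis, log2 units) for the 7 hairpins with both arms among the core miRNAs, with 1 point per library coloured by group and a black line at the mean of all 39 libraries. miR-22a lay near 9.58 and miR-22b near -4.13 in every group, and the groups overlapped for each hairpin.

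Of the other core miRNAs, 23 had a partner arm in the table that was not read in every library, 3 had no partner there and 34 carried no arm in their names. For miR-128 and miR-25 the partner was near the limit of detection, at medians of 5.72 normalised reads for miR-128-5p and 10.3 for miR-25-5p.

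Members of one family often had levels far apart. The group of miR-15, miR-16 and miR-457, known for holding back the cell cycle, had 7 core miRNAs, from miR-16b with a median of 11204 normalised reads down to miR-457a with 159. miR-16b, miR-16c-5p and miR-16a varied together over the 39 libraries, with correlations of 0.92 between miR-16b and miR-16c-5p and of 0.90 between miR-16a and each of the others. Their differences were almost constant, at 1.53 ± 0.26 on the log2 scale between miR-16b and miR-16c-5p. The 4 highest libraries were the same for all 3 of them (High2 7, High2 9, High2 10 and Low1 7). They were all the libraries of the Low-first line in pool 5, and the part of the pool or of the line was not tested. These miRNAs have closely similar sequences, and how a read that matches several of them was counted is not given in the sources used here, so that their single levels are uncertain. The same holds for miR-455-5p and miR-455-2-5p (correlation 0.91) and for miR-7a and miR-7b (0.37). In contrast, miR-16c-3p, which is cut from the same hairpin as miR-16c-5p, had a correlation of 0.11 with it.

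Neighbouring hairpins were compared by their places in the RefSeq annotation of assembly GRCz12tu, in which 73 of the 74 core miRNAs were matched by the symbol of a miRNA gene and miR-735-5p by the synonym of an entry with the symbol rny2. Hairpins within 10000 bases of each other formed 11 pairs of core miRNAs, with correlations from -0.48 to 0.56. The 4 pairs above 0.5 had 0.56 for miR-216a with miR-216b, 0.52 for miR-192 with miR-194a, 0.52 for miR-221-3p with miR-222a-3p and 0.53 for miR-15c with miR-16a. A further 5 pairs lay between 0.21 (miR-221-3p with miR-222a-5p) and 0.42 (miR-15a-5p with miR-16c-5p), among them 0.31 for miR-216a with miR-217. The values of 2 pairs were negative, with -0.48 for miR-15a-5p with miR-16c-3p and -0.38 for miR-132-3p with miR-212-5p. miR-192 and miR-194b, whose hairpins were not found within that distance, had a correlation of -0.08. The libraries share their depth in all these pairs, and with 35 libraries of at least 500000 reads the values were 0.76 for miR-216a with miR-216b and 0.36 for miR-221-3p with miR-222a-3p.

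The core miRNAs differed widely in how steady they were across libraries. The SD of the log2 values was under 0.5 for 9 core miRNAs and over 1 for 8. The 5 steadiest were miR-22a-3p (0.32), miR-21 (0.39), miR-16c-3p (0.41), miR-148 (0.42) and miR-196a-5p (0.42). The 5 most variable were miR-725-3p (1.44), miR-738 (1.34), miR-1388-5p (1.22), miR-2189 (1.15) and miR-727-5p (1.14), of which the median levels were 877, 162, 313, 463537 and 73.4 normalised reads. The first place of miR-725-3p rested on 1 library, Low2 5, which had 5.18 normalised reads, while the next lowest, Low1 3, had 286. miR-738, a fish miRNA, had 2594 normalised reads in Low2 3 and 962 in High1 1, but 18.2 in Low1 4. miR-204-5p, which is abundant in the eye, had 9468 in Low2 3, where its next highest library, Low1 1, had 4857. Low2 3 held 133035 reads in all and Low1 1 held 79435, and the part of the depth in these values was not tested.

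The libraries of pool 5 named above shared a common set of high members. miR-140-3p had 43510 normalised reads in Low2 7, 29255 in High1 7, 26623 in Low2 6 and 10975 in High1 8, and the next highest of the 39 libraries had 9110. miR-726, a fish miRNA, had 1273 in Low2 7, 1166 in Low2 6, 768 in High1 7 and 478 in High1 8, with 225 in the next. miR-2185-5p, also of fish, had 1038 in Low2 7, 912 in High1 7, 660 in Low2 6 and 488 in High1 8, with 352 in the next. These were the 3 core miRNAs of which those 4 libraries were the highest. The islet miRNA miR-375 had 8430 in Low2 6, 8119 in Low2 7 and 5473 in High1 7, followed by 4185 in High1 2. miR-222a-5p was highest in Low2 7 (1109), Low2 6 (786) and High1 7 (765), followed by High1 5 (463). miR-363-3p had its 4 lowest values in the same 4 libraries, from 63.2 in High1 7 to 102 in High1 8, and 103.4 in the next, High1 5.

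miR-140-3p and miR-726 had a correlation of 0.89 across the 39 libraries, and of 0.52 in the 35 libraries without these 4. miR-726 and miR-222a-5p had one of 0.75, and of 0.33 without the 4. Those 4 were the highest libraries of miR-140-3p and of miR-726, so that lower values without them follow in part from that choice. The 5p arm of miR-140 did not follow its 3p arm, with a correlation of -0.26, and of -0.20 without them. A member lay more than 2-fold above its own median in 17 cases in Low2 7, 15 in Low2 6, 11 in High1 7 and 6 in High1 8, and in at most 9 in any other library, so that the number in High1 8 lay within the range of the others. The 4 libraries came from both groups of the High-first line and were all the libraries of that line in pool 5. The other libraries of pool 5 all came from the Low-first line. Of these, High2 7 was the next highest of all libraries for miR-140-3p and miR-726, and High2 10 for miR-2185-5p. For miR-152 and miR-456, High2 10 was among the 4 highest, with Low2 6, Low2 7 and High1 7. The part of the pool, of the line or of other cells in these values was not tested.

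**Figure D4:**
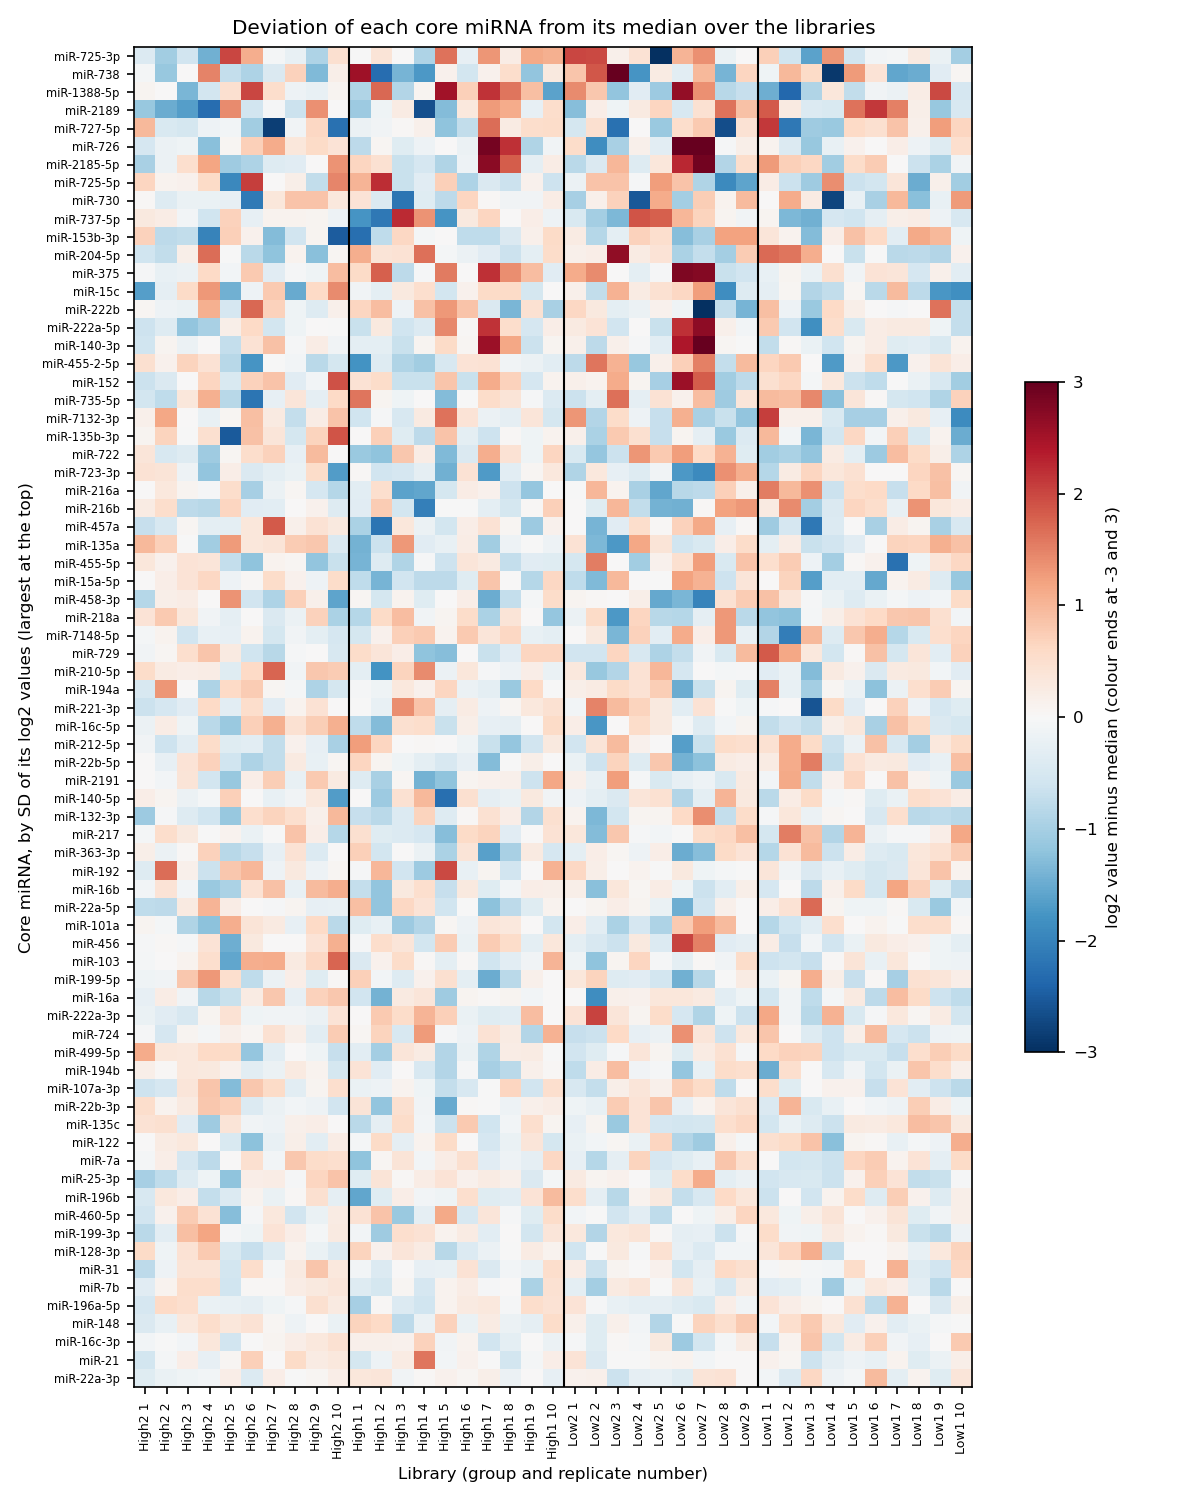
Deviation of each of the 74 core miRNAs (rows, the largest SD at the top) from its median over the 39 libraries (columns, by group and replicate number), in log2 units with the colour ending at -3 and 3. miR-140-3p, miR-726, miR-2185-5p, miR-375 and miR-222a-5p were red in Low2 6, Low2 7 and High1 7, and the bottom rows, with miR-21 and miR-22a-3p, were pale in nearly all libraries.

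Between the groups, no core miRNA passed the test. Log2 values of all 346 miRNAs were compared with limma for each pair of groups that the study set against each other, and for High as a whole against Low. After Benjamini-Hochberg adjustment at 0.05, 0 of the 74 core miRNAs were called in each of the 7 comparisons, and 0% of all miRNAs tested were called as well. With limma-voom on the recovered reads 0 core miRNAs were called too. From a fold change to either end of its 95% interval, the median distance over the 74 core miRNAs was 0.62 to 0.64 on the log2 scale between pairs of groups and 0.44 for High against Low. The interval lay wholly within 2-fold in either direction for 67 of the 74 in High against Low and for 44 to 54 in the pairs of groups. The p-values measure the spread between these samples only, and they take no account of the males that gave a sample to both groups of a line.

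The intervals were narrowest for the abundant, steady members. miR-22a-3p had log2 fold changes of -0.12 (95% interval -0.45 to 0.21) in High2 against Low1, -0.01 (-0.34 to 0.31) in High1 against Low1 and -0.01 (-0.25 to 0.22) in High against Low. miR-21 had 0.16 (-0.11 to 0.43) in High against Low, miR-128-3p -0.07 (-0.37 to 0.22) and miR-31 -0.04 (-0.33 to 0.25). None of these intervals reached a 2-fold difference.

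Unadjusted p-values under 0.05 were counted beside their background. In High2 against Low1, the comparison within the Low-first line, 6 of the 74 core miRNAs (8.11%) had such a p-value, against 5.78% of all 346 miRNAs. Of these, 4 were higher in High2, where the background was 4.62%, and 2 were lower, where it was 1.16%. High2 against Low2 gave 0 core miRNAs (background 4.05%), High1 against Low1 gave 1 (3.18%), High1 against Low2 gave 1 (0.867%), High2 against High1 gave 1 (6.36%), Low2 against Low1 gave 2 (6.36%) and High against Low gave 2 (1.16%). The percentage among the core miRNAs was below that of all miRNAs in 4 comparisons and above it in 3 (8.11% in High2 against Low1, 1.35% in High1 against Low2 and 2.7% in High against Low), and counts this near the background are no result about the core miRNAs. The median log2 fold change of the core miRNAs was between -0.03 and 0.09 in all comparisons between pairs of groups, where the median over all miRNAs was between -0.03 and 0.05.

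**Figure D5:**
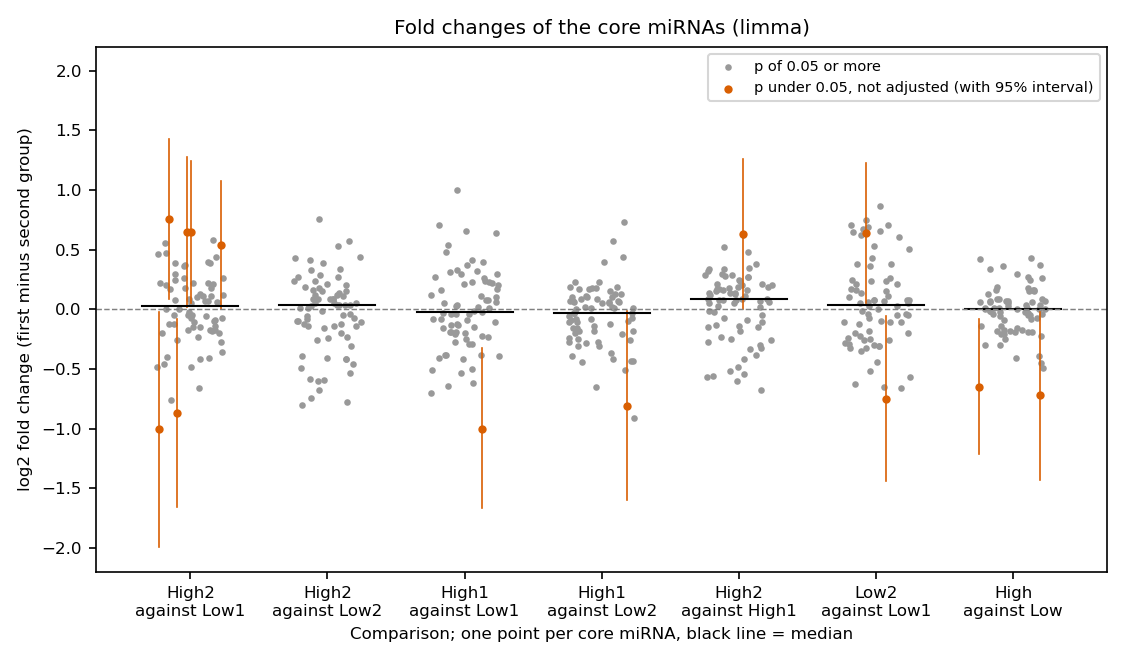
Log2 fold changes of the 74 core miRNAs (vertical axis, first minus second group of each comparison) in 7 comparisons, with 1 point per miRNA, orange where the unadjusted limma p was under 0.05 with its 95% interval, and a black line at the median. The medians lay near 0, and none of the orange points passed after adjustment.

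In High2 against Low1 the smallest p-values were those of miR-457a, miR-153b-3p and miR-210-5p. miR-457a had 97.6 to 582 normalised reads in High2 (median 172) and 33.0 to 187 in Low1 (median 113). The groups overlapped, and its log2 fold change was 0.76 ± 0.33 (SE, limma p = 0.028, adjusted p = 0.817), with a higher mean in High2 in 5 of 5 sequencing pools (0.35 to 0.89). With the libraries of at least 500000 reads alone it was 0.51, and with the pool as covariate it was 0.50, and 1 High2 library, High2 7, held the value of 582 while the next in the group had 218. In this comparison every pool but pool 2 held a single library of High2 or of Low1. The other pairs of groups had such pools too, so that agreement between pools is not replication. miR-153b-3p had 534 to 4980 in High2 (median 1939) and 1234 to 6632 in Low1 (median 3687), a log2 fold change of -0.87 ± 0.39 (limma p = 0.0308, adjusted p = 0.817). It was lower in High2 in 4 of 5 pools, with 0.02 in pool 2. With libraries of at least 500000 reads its log2 fold change was -1.05. miR-210-5p, from a hairpin known for its induction by hypoxia, had 109 to 482 in High2 (median 189) and 55.1 to 173 in Low1 (median 127), a log2 fold change of 0.65 ± 0.29 (limma p = 0.0343, adjusted p = 0.817) that was positive in 4 of 5 pools.

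The other members at an unadjusted p under 0.05 in this comparison were miR-15a-5p (0.65), miR-103 (0.54) and miR-2189, the last with a log2 fold change of -1.0 and a 95% interval of -1.99 to -0.02. Of the 7 core miRNAs of the miR-15, miR-16 and miR-457 group, 6 had a positive fold change in High2 against Low1, with a median of 0.40 against 0.04 over all miRNAs, and 0 were called. The levels of miR-16a, miR-16b and miR-16c-5p move together, with correlations of 0.90 to 0.92, and their reads may be shared. The 7 values are therefore not all separate observations. miR-16c-3p did not follow the others, with correlations from -0.48 to 0.11. The libraries highest for miR-16a, miR-16b and miR-16c-5p (High2 7, High2 9, High2 10 and Low1 7) were all of pool 5. The fold change with the pool as covariate is given above for miR-457a, and those of the other members are not given here. With the treatments of the public record in place of the titles, the fold changes of miR-457a, miR-153b-3p and miR-210-5p in High2 against Low1 took the other sign.

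In High2 against Low2, the same 3 positions were held by miR-222a-5p, miR-222b and miR-210-5p. miR-222a-5p had 71.3 to 258 normalised reads in High2 (median 141.6) and 104 to 1109 in Low2 (median 188), with a log2 fold change of -0.80 ± 0.40 (limma p = 0.0503, adjusted p = 0.983). The difference was -2.63 within pool 5 and between -0.34 and 0.26 in the other pools. Without the 4 libraries of pool 5 named above, the log2 fold change was -0.24. Low2 6 and Low2 7, among those 4, were the highest Low2 libraries of miR-222a-5p, so that a smaller value without them follows from that choice. With libraries of at least 500000 reads, which keep those 4, the log2 fold change was -0.96. miR-222b had 52.7 to 261 in High2 (median 74.9) and 5.87 to 120 in Low2 (median 67.8), with 0.76 ± 0.40 (limma p = 0.0687, adjusted p = 0.983). It was 0.45 without the 4 libraries, among them Low2 7, which had a single read. With libraries of at least 500000 reads it was 0.91. miR-210-5p had 0.57 ± 0.30 (limma p = 0.0689, adjusted p = 0.983), positive in 3 of 5 pools, and 0.31 with libraries of at least 500000 reads. With the treatments of the public record, which exchange most libraries of High2 and Low2, all 3 of these fold changes took the other sign.

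In High1 against Low1, the comparison of the first period, miR-216a had the smallest p-value of any core miRNA. This miRNA of the exocrine pancreas had 4.92 to 34.0 normalised reads in High1 (median 16.1) and 12.7 to 73.6 in Low1 (median 36.8), with a log2 fold change of -1.0 ± 0.33 (limma p = 0.0047, adjusted p = 0.763). The groups overlapped, the difference was negative in 4 of 5 pools, and with libraries of at least 500000 reads it was -0.76. Its neighbours miR-216b and miR-217 also had negative values, with -0.38 as the smallest of the 3 in size and -0.53 as their median. The highest Low1 value, 73.6, was that of Low1 1, where it stood for 2 reads. miR-1388-5p had 99.6 to 1828 in High1 (median 553) and 57.5 to 1244 in Low1 (median 248), with 1.00 ± 0.52 (limma p = 0.0623, adjusted p = 0.774) and 0.69 without the 4 libraries. miR-723-3p had 851 to 3789 in High1 (median 2280) and 1545 to 5149 in Low1 (median 3424), with -0.64 ± 0.34 (limma p = 0.0665, adjusted p = 0.774). With the treatments of the public record, the value of miR-216a was -0.32 and that of miR-723-3p was -0.30.

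High1 against Low2 compared the periods of the High-first line. miR-455-2-5p, from a hairpin inside a collagen gene that is active in cartilage, had 3.50 to 30.9 normalised reads in High1 (median 16.5) and 7.78 to 74.8 in Low2 (median 38.6), with a log2 fold change of -0.81 ± 0.39 (limma p = 0.0469, adjusted p = 0.993). Its near copy miR-455-5p had -0.65 ± 0.35 (limma p = 0.0709, adjusted p = 0.993). Both were negative in 5 of 5 pools, though miR-455-5p had only -0.01 in pool 3. The largest pool difference of miR-455-2-5p, -2.84 in pool 2, came from a single library per group. Both had few reads per library, and with libraries of at least 500000 reads their fold changes were -0.53 and -0.51. miR-222b had 27.1 to 193.6 in High1 (median 114) and 5.87 to 120 in Low2 (median 67.8), with 0.73 ± 0.40 (limma p = 0.0771, adjusted p = 0.993). Its fold change was 0.89 with libraries of at least 500000 reads. Under the labels of the public record these values were -0.20 for miR-455-2-5p, -0.01 for miR-455-5p and 0.18 for miR-222b.

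The order of a treatment was compared in High2 against High1 and in Low2 against Low1. In High2 against High1, miR-15a-5p had 162 to 282 normalised reads in High2 (median 203.8) and 66.1 to 324 in High1 (median 112), with a log2 fold change of 0.63 ± 0.31 (limma p = 0.0498, adjusted p = 0.714). The range of High1 enclosed that of High2. miR-135a had 41.8 to 224 in High2 (median 135.3) and 31.5 to 229 in High1 (median 79.1), with 0.62 ± 0.34 (limma p = 0.0787, adjusted p = 0.736), and miR-210-5p had 0.48 ± 0.29 (limma p = 0.115, adjusted p = 0.748). The labels of the public record gave 0.19 for miR-15a-5p, 0.20 for miR-135a and -0.04 for miR-210-5p.

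In Low2 against Low1, miR-216a had 5.18 to 49.9 normalised reads in Low2 (median 22.6) and 12.7 to 73.6 in Low1 (median 36.8), with -0.75 ± 0.34 (limma p = 0.0342, adjusted p = 0.577). This comparison shares the Low1 libraries with High1 against Low1. miR-221-3p, a regulator of cell cycle inhibitors, had 336 to 1181 in Low2 (median 510) and 66.1 to 680 in Low1 (median 391), with 0.64 ± 0.29 (limma p = 0.0356, adjusted p = 0.577). Both of its extremes lay in libraries of fewer than 500000 reads, the highest in Low2 2 and the lowest in Low1 3, and with libraries of at least 500000 reads its fold change was 0.13. miR-22b-5p had 1088 to 5064 in Low2 (median 2511) and 1750 to 8460 in Low1 (median 3513), with -0.57 ± 0.28 (limma p = 0.0539, adjusted p = 0.577), and -0.25 without the 4 libraries. The labels of the public record gave -0.05 for miR-216a, 0.15 for miR-221-3p and -0.27 for miR-22b-5p.

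With both orders pooled, High against Low gave p-values under 0.05 for miR-153b-3p and miR-2189. miR-153b-3p had 534 to 4980 normalised reads in High libraries (median 2151) and 1234 to 6976 in Low libraries (median 3580), with a log2 fold change of -0.65 ± 0.28 (limma p = 0.0257, adjusted p = 0.998). It was lower in High in 5 of 5 pools, by values from -1.0 to -0.13. Its fold change was -0.83 with libraries of at least 500000 reads, and 0.08 with the labels of the public record. miR-2189 had 74016 to 1242010 in High libraries (median 406297) and 191069 to 2030380 in Low libraries (median 557485), with -0.72 ± 0.35 (limma p = 0.045, adjusted p = 0.998), negative in 4 of 5 pools, and -0.24 with those labels. miR-216a had -0.45 ± 0.24 (limma p = 0.064, adjusted p = 0.998), but -0.22 with libraries of at least 500000 reads and -0.20 with the labels of the public record.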

How the data were processed

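Total RNA of sperm was used for small RNA libraries, sequenced in pools. The authors trimmed the reads, used PatMaN to match them, with no mismatch allowed, to mature zebrafish sequences of miRBase, counted the matches and named DESeq2 for normalisation. The table that the authors deposited holds log2 values. Their scale was worked out from the numbers: each is the log2 of an offset of 4 added to the reads over the size factor of the library, so that 2 stands for no read, and all 13494 values gave whole reads within 0.05. The table of piRNA clusters was not used.

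Groups followed the sample titles and pools the sample descriptions. The deposited log2 values of all 346 miRNAs in 39 libraries went into 1 fit with group as the only factor (limma 3.58.1 under R 4.3.3, moderated with a trend of variance on mean), two-sided, with Benjamini-Hochberg adjustment over all miRNAs of a comparison. A count model was not the main test, since the values are log2. The scripts were tested on simulated data. A fold change is the difference between group means on this log2 scale, and the offset of 4 makes it understate the change of miRNAs of low level. Correlations are Pearson's across libraries, as a description. Alternatives were limma without the trend, limma-voom on the recovered reads, libraries centred on their median and an offset of 1. Others were the lowest 25% of miRNAs left out, only the groups compared, the pool as covariate and the labels of the public record. Libraries of at least 500000 reads and the replicate number as a block were used as well. High1 10 was left out in another, since its name heads more than 1 column of the supplement. Low2 6, Low2 7, High1 7 and High1 8 were left out for fold changes, correlations and the contrast between periods. This last alternative was chosen after seeing the data.

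The members, the lists and the tests were chosen with earlier results of these data known. Named are the 20 most abundant core miRNAs, the 3 of smallest p in each comparison, the 5 largest and 5 smallest SDs, and members of lists by family, neighbouring hairpins and tissue. The miR-29, miR-130/301/454 and miR-126 lists and miR-93 had 0 core miRNAs. Summaries were made in Python 3.11.15 with numpy 2.4.6 and pandas 2.3.3, and plots with matplotlib 3.10.9.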

Additional observations from a re-analysis of the deposited data

Results flagged for a closer look

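The values of each of the 36 miRNAs named for their level, SD or p were examined within each group, on the log2 scale. In 13 of these sets, 4 for each miRNA, the gap between the highest or lowest library and its neighbour, divided by the range of the group, exceeded Dixon's critical value at 95%. Chance flags about 1 in 20 groups, but some of these miRNAs were named for their spread, so that the number is not to be read against that rate. Upward there were miR-21 in High1 4, with 190858 normalised reads (next 73926, group median 61326), and miR-457a in High2 7, with 582 (next 218). Downward, the widest gap was that of miR-725-3p in Low2 5, with 5.18 (next 769, group median 1183). Low2 2, a library of 404777 reads, had 1168 for miR-16c-5p (next 2974) and 1314 for miR-103 (next 2484). High1 1 had 2827 for miR-7a (next 5104) and 627 for miR-153b-3p (next 1781). Low1 3 had 55.1 for miR-210-5p (next 102.8) and 66.1 for miR-221-3p (next 293), in a library of 166612 reads, and Low1 1 had 1545 for miR-723-3p (next 2792). The others were miR-210-5p in High1 2 with 38.0 (next 114), miR-122 in High2 6 with 1430 (next 2444) and miR-16c-3p in High2 5 with 1918 (next 2707). Of these 13 values, 5 lay in libraries of fewer than 500000 reads, and the part of the depth was not tested.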

How the results depend on the processing

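Over 79 alternative fits of the 7 comparisons, 0 core miRNAs were called after adjustment in each, and the smallest adjusted p of the fold changes followed was 0.309. Among all 346 miRNAs, calls appeared only in High2 against High1, with 10 for libraries of at least 500000 reads and 9 in the fit of only the groups compared, and 0 of them were core miRNAs. The number at an unadjusted p under 0.05 ranged from 2 to 7 in High2 against Low1, 0 to 3 in High2 against Low2, 1 to 5 in High1 against Low1, 0 to 4 in High1 against Low2, 0 to 2 in High2 against High1, 0 to 4 in Low2 against Low1 and 1 to 4 in High against Low. With libraries of at least 500000 reads it was 2 in High2 against Low1. The share of all 346 miRNAs was not counted in these fits, so that the ranges are no result about the core miRNAs. Of 237 alternative values of the 21 fold changes followed, 229 kept their sign. The other 8 all came from the labels of the public record, under which a further 12 of the 21 were more than 1.5 times smaller, down to -0.01 for miR-455-5p in High1 against Low2 (-0.65 by the titles) and -0.05 for miR-216a in Low2 against Low1 (-0.75), and 1 was larger (miR-1388-5p, 1.28). The values of the other sign were 0.10 for miR-153b-3p, -0.29 for miR-210-5p and -0.05 for miR-457a in High2 against Low1, -0.19 for miR-210-5p, 0.33 for miR-222a-5p and -0.70 for miR-222b in High2 against Low2, -0.04 for miR-210-5p in High2 against High1 and 0.08 for miR-153b-3p in High against Low. The public record named Low2 for most High2 libraries and High2 for most Low2 libraries. Reversed signs in High2 against Low2 largely restate that exchange. Why the titles and the record differ was not tested.

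The deviations of same-numbered samples had correlations of -0.372 to 0.273 in the Low-first line (mean -0.0913, 2 of 10 pairs over 0.1) and of -0.355 to 0.797 in the High-first line (mean 0.086, 4 of 9 pairs over 0.1), and 1 and 2 samples were closest to their own number. Since not every pair exceeded 0.1, the numbers were not taken as pairs. With the replicate number as a block, 7 core miRNAs in High2 against Low1 and 4 in High1 against Low2 had an unadjusted p under 0.05, and 0 were called. The share of all 346 miRNAs was not counted in this fit, so that these counts are no result about the core miRNAs or the pairing. Single libraries were not left out in turn, since groups held 9 or 10. Depth limits the low members, for which 1 read in Low1 1 was worth 36.8 normalised reads.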

Other observations

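The difference of High2 from Low2, in the second period, less that of High1 from Low1, in the first, was tested in 1 limma contrast over the 4 groups. No core miRNA was called. Of all 346 miRNAs, 28 (8.09%) had an unadjusted p under 0.05, and of the 74 core miRNAs 4 had one, a smaller share. Their differences of differences on the log2 scale, each with an adjusted p of 0.511, were -1.31 for miR-375, -0.95 for miR-221-3p, 1.08 for miR-216a and -1.21 for miR-222a-5p. For miR-375 the difference was -0.59 in the second period and 0.71 in the first. The levels of miR-375 and miR-222a-5p were highest in Low2 6, Low2 7 and High1 7, libraries of the High-first line. Without these libraries and High1 8, an alternative chosen after seeing the data, the values were -0.45 for miR-375, -1.12 for miR-221-3p, 0.99 for miR-216a and -0.38 for miR-222a-5p (adjusted p of 0.991 each). In that fit 2 core miRNAs had an unadjusted limma p under 0.05. The share of all 346 miRNAs was not counted there, so that this number is no result about the core miRNAs.

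The libraries with most core miRNAs among their 4 highest were Low2 6 and Low2 7, with 16 each, and Low1 3, with 15. Low2 2 had the most among the 4 lowest, with 20, followed by Low1 3 with 17. The same 4 libraries (High1 1, High2 4, Low1 3 and Low1 10) were highest for miR-128-3p and miR-363-3p.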
